A study of Mus musculus with 12 samples.

Results

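The 6 cadherin genes Cdh4, Cdh1, Cdh2, Cdh3, Cdh11 and Cdh13 were followed in mouse skin, out of 49492 genes in the count table, together with their 19 m6A peaks out of 42989. The members were selected by name, around Cdh4, whose mRNA change between UV and control skin was among the largest falls in earlier results from these same files; the values that chose Cdh4 are therefore given as a description, without a test. The labels give skin of 3 control and 3 UV-treated Mus musculus samples, and from each an input library of total RNA and a library immunoprecipitated with an antibody to N6-methyladenosine (IP). The series is about the m6A writer KIAA1429 and photoaging, the ageing of skin by UV. Strain, age, sex, UV dose, wavelength and exposure schedule are not stated in these sources, and nothing in them says that the samples of a condition were separate animals, so p-values measure the spread between these samples, which may be technical.

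Cadherins are calcium-dependent adhesion proteins: the extracellular repeats of one cell bind those of the next, and in classical cadherins the cytoplasmic tail binds catenins that connect to actin. E-cadherin (Cdh1) holds keratinocytes together through the epidermis, and P-cadherin (Cdh3) is concentrated in its basal layer and in hair follicles. N-cadherin (Cdh2) and R-cadherin (Cdh4) are classical cadherins best known from neural tissue, cadherin-11 (Cdh11) is a type II cadherin of mesenchymal cells, and T-cadherin (Cdh13) lacks the transmembrane and cytoplasmic parts and is held to the membrane by a lipid anchor. m6A is a methyl mark on adenosines of mRNA that often lies in long exons and near stop codons, and is bound by reader proteins that affect the fate of the transcript.

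The input libraries held 24126662 to 67060422 reads in genes and the IP libraries 27685764 to 92163619. Control 2 had the smallest input library and control 3 the smallest IP library. The samples carried the markers of skin: the summed level of 12 keratinocyte markers was 19150 to 55061 CPM (reads of a gene scaled to the size of its library, with TMM factors) in control inputs and 49044 to 74334 in UV inputs. In bulk tissue, fewer cells of a type and less RNA per cell cannot be told apart, which holds for every difference below.

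Per kilobase of exon, Cdh1 was the most abundant of the 6 mRNAs and Cdh2 or Cdh4 the least. In the control inputs Cdh1 was at 70.3 ± 4.3 CPM per kb (SD, n = 3, as for all means below), Cdh3 at 14.8 ± 1.3, Cdh11 at 2.44 ± 0.078, Cdh13 at 1.60 ± 0.11, Cdh4 at 1.49 ± 0.18 and Cdh2 at 0.332 ± 0.039. The ranges of the neighbours Cdh13 (1.5 to 1.71) and Cdh4 (1.29 to 1.61) overlapped, and those of the other neighbours did not. In the UV inputs the levels were 78.0 ± 1.3 for Cdh1, 13.5 ± 1.9 for Cdh3, 2.81 ± 0.38 for Cdh11, 0.981 ± 0.12 for Cdh13, 0.381 ± 0.019 for Cdh2 and 0.338 ± 0.034 CPM per kb for Cdh4. There Cdh4 lay at the end of the order, with a range (0.309 to 0.376) that overlapped that of Cdh2 (0.359 to 0.394).

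Cdh4 lies on chromosome 2, 179442431 to 179899373 on the plus strand (GRCm38), with 19 merged exons. Its input level was 11.7, 9.33 and 11.5 CPM in control samples 1 to 3 and 2.73, 2.24 and 2.39 CPM in UV samples 1 to 3. Every UV library was below every control library, and the level in UV was 22.5% of that in control, a log2 difference of −2.15 (SE 0.14). These values rested on 242 to 723 reads per control input and 96 to 149 per UV input. As this is the contrast that chose Cdh4, it has no test here.

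The antibody-bound RNA gave Cdh4 the same picture. Its level in the IP libraries was 10.6, 9.60 and 10.5 CPM in control and 2.43, 1.87 and 2.32 CPM in UV, a log2 difference of −2.23 (SE 0.14). Again no UV library reached the lowest control library. The IP libraries come from the same samples as the inputs, so this is not independent of the choice of Cdh4.

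**Figure D1:**
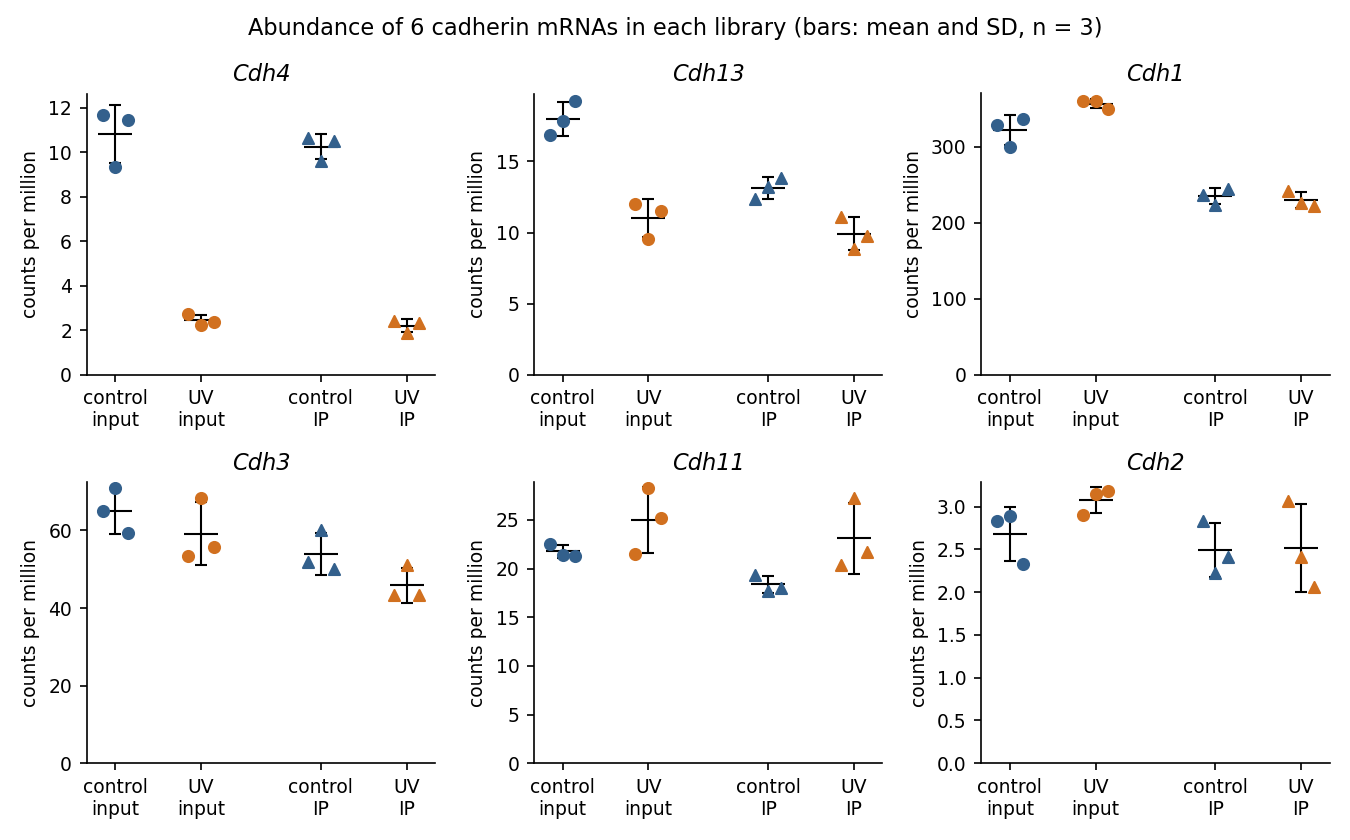
Abundance of the 6 cadherin mRNAs in CPM (linear axis from 0) for the control (blue) and UV (orange) input libraries (circles) and IP libraries (triangles); horizontal bars and whiskers are the mean and SD of 3 libraries. Cdh4 falls from 9.33 to 11.7 CPM in control inputs to 2.24 to 2.73 CPM in UV inputs and from 9.60 to 10.6 CPM to 1.87 to 2.43 CPM in the IP libraries, Cdh13 has no overlap between the groups in either (called in input, adjusted p = 0.104 in IP), and the other 4 genes have adjusted p of 0.287 to 0.499 in input.

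Cdh13 was the other member with lower mRNA in UV skin. It lies on chromosome 8, 118283733 to 119324921 on the plus strand. Its input level was 16.9, 17.8 and 19.3 CPM in control and 11.99, 9.51 and 11.5 CPM in UV, so the groups did not overlap. The mean fell from 18.0 ± 1.21 to 11.0 ± 1.32 CPM, a log2 difference of −0.71 (SE 0.11, adjusted p = 0.0142, edgeR quasi-likelihood test with Benjamini-Hochberg adjustment over 24099 genes). In this comparison 2.81% of all genes tested were called lower (adjusted p below 0.05) and 15.5% had every UV value below every control value. The call needed all 3 UV samples: it was lost without UV sample 1 (adjusted p = 0.0518), UV sample 2 (0.0532) or UV sample 3 (0.0525), with log2 differences of −0.60 to −0.77. In the IP libraries Cdh13 was at 12.3, 13.2 and 13.8 CPM in control and 11.1, 8.84 and 9.79 CPM in UV. That difference, −0.41 (SE 0.11), also had no overlap between groups but did not pass the test (adjusted p = 0.104), where 2.5% of the 22789 genes tested for IP abundance were called in either direction and 11.8% had every UV value below every control value.

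The epidermal cadherins Cdh1 and Cdh3 did not pass the test. They are neighbours on chromosome 8, Cdh3 at 106510891 to 106557297 and Cdh1 at 106603351 to 106670246, both on the plus strand and 46053 bases apart. Cdh1 was at 329, 299 and 337 CPM in control inputs and 360, 361 and 350 CPM in UV inputs. Every UV value was above every control value, as for 15.5% of all genes, but by a small margin: the log2 difference was 0.15 (95% interval −0.04 to 0.34, adjusted p = 0.299), and 3.02% of genes were called higher. Cdh3 was at 64.9, 71.0 and 59.2 CPM in control and 53.4, 68.4 and 55.6 CPM in UV. Its groups overlapped and its log2 difference was −0.14 (95% interval −0.40 to 0.13, adjusted p = 0.499). In the IP libraries the log2 differences were −0.03 for Cdh1 (95% interval −0.21 to 0.15) and −0.23 for Cdh3 (95% interval −0.47 to 0.01, adjusted p = 0.268).

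Nor did the mesenchymal Cdh11 or the scarce Cdh2. Cdh11, on chromosome 8 at 102632095 to 102785642 on the minus strand, was at 22.6, 21.4 and 21.3 CPM in control inputs and 21.5, 28.2 and 25.2 CPM in UV inputs, a log2 difference of 0.20 (95% interval −0.05 to 0.45, adjusted p = 0.287). UV sample 1 lay within the control range and the other two above it. In IP its levels were 19.4, 17.7 and 18.0 CPM in control and 20.4, 27.3 and 21.7 CPM in UV, all UV values above all control values, as for 12.8% of the genes tested there; the log2 difference of 0.34 (95% interval 0.06 to 0.61) did not pass adjustment (adjusted p = 0.18). Cdh2, on chromosome 18, was at 2.83, 2.89 and 2.32 CPM in control and 2.90, 3.15 and 3.18 CPM in UV (log2 difference 0.21, 95% interval −0.15 to 0.56, adjusted p = 0.452). It had 75 to 198 reads per input library, and a change of a size within that interval could not be told from none.

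Levels of other cells' RNA moved with the same contrast. Markers of epidermal gamma delta T cells summed to 19.3 to 23.4 CPM in control inputs and 10.6 to 11.99 in UV inputs; 3 of the 5 tested (Cd3g, Cd3e and Trdc) fell, where 2.81% of all genes fell and 3.02% rose; no listed marker in the table was at 0 in every input, Xcl1 and Klra5 were below the count filter, and Trgc1 was not found in the table. The sums of fibroblast markers (8598 to 9529 against 6061 to 7102 CPM, 3 of 10 fell) and skeletal muscle markers (5167 to 12185 against 1959 to 5139 CPM, 2 of 11 fell) were also lower in every UV input. Those of endothelial markers (115 to 117 against 135 to 165 CPM, 1 of 10 rose) and adipocyte markers (349 to 390 against 469 to 539 CPM, 2 of 8 rose) were higher. Among single genes, 15.5% had every UV value below every control value and 15.5% above. Of the macrophage and Langerhans cell markers, with a median log2 difference of −0.18, 3 of 8 fell. Of the keratinocyte markers 1 of 12 rose and 1 fell, and their median was 0.36. The sums of both lists overlapped between groups. So did those of the hair follicle (0 of 12 called), melanocyte (0 of 8 called), smooth muscle and pericyte (2 of 10 rose) and Schwann cell lists (1 of 10 fell). Each hair follicle marker was nonetheless lower in UV, from −0.15 for Sox9 to −1.16 for Hoxc13. Their median log2 difference was −0.54, beside −0.02 for all genes. The medians were −0.32 for melanocyte, −0.10 for smooth muscle and pericyte and 0.08 for Schwann cell markers. The part of these lists in the values of Cdh4 and Cdh13 was not tested.

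Among the other genes of the superfamily and its junctions, few were called. Of 92 genes in 6 lists 79 were tested, 1 rose and 2 fell, against backgrounds of 3.02% higher and 2.81% lower, and their median log2 difference was −0.00 beside −0.02 for all genes. The 3 calls depend on the setting: they numbered 7 under scaling to library size alone, 11 without the count filter, 12 with DESeq2, and 1 without control 1, UV 1 or UV 2 but 11 without control 3. Under scaling to library size alone the genes called over the whole table were 455 higher and 1019 lower, in place of 728 and 676.

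The catenin that fell was Ctnnd2, δ-catenin, a relative of p120 that binds the juxtamembrane part of classical cadherin tails. Its input level was 7.34, 6.98 and 7.21 CPM in control and 3.15, 3.26 and 3.42 CPM in UV. The groups were far apart relative to their spread, with a log2 difference of −1.13 (SE 0.12, adjusted p = 0.00378, edgeR), and leaving out any 1 sample kept the adjusted p at 0.0292 or below. In IP it was 6.02, 7.67 and 5.67 CPM in control and 2.95, 4.14 and 3.54 CPM in UV (log2 difference −0.86, adjusted p = 0.043, edgeR). The other 20 of 21 tested catenins and adherens junction partners were not called, among them β-catenin (Ctnnb1, −0.09), α-catenin (Ctnna1, −0.00) and p120 (Ctnnd1, 0.00). The list's median was −0.05. Its summed level was 3126 to 3236 CPM in control inputs and 3317 to 3469 in UV inputs, without overlap. Among single genes, 15.5% had every UV value above every control value.

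Among 16 tested members of the wider cadherin superfamily, calsyntenin-3 (Clstn3), best known from neurons and adipocytes, rose from 9.18 ± 2.497 to 17.0 ± 1.80 CPM (log2 difference 0.87, SE 0.19, adjusted p = 0.0369, edgeR). The giant protocadherin-like Dchs2, of the family that signals in planar polarity, fell from 2.70 ± 0.67 to 1.25 ± 0.31 CPM (−1.09, SE 0.26, adjusted p = 0.0495, edgeR). Both calls were lost when single samples were left out: Clstn3 without control 1 or any UV sample (adjusted p up to 0.142), and Dchs2 without any sample but control 3 (up to 0.169). Fat3 had a log2 difference of −1.21 that missed the threshold in input (adjusted p = 0.0587) and was called lower in IP (−1.05, adjusted p = 0.0239, edgeR). Cdhr1, named after its values were seen, had the highest log2 difference of the lists, 2.09, with an SE of 0.74 and an adjusted p of 0.129.

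None of the 6 tested other classical cadherins was called in input, the highest and lowest being Cdh19, of Schwann cells, at 0.40 (adjusted p = 0.163) and Cdh15, of muscle, at −0.69 (0.36). Vascular Cdh5 was at 0.34 (0.0949). The 14 desmosomal cadherins and plaque proteins, which join keratinocytes at desmosomes, had a median of 0.26 and no call. Pkp1 (0.57, adjusted p = 0.0651), Dsg3 (0.63, 0.0682) and Dsc1 (0.72, 0.0715) came nearest. Their summed level was higher in every UV input (20001 to 23185 CPM) than in any control input (14164 to 18428). Dsp alone averaged 14541 and 10928 CPM. Apart from the catenin list, the sums of the other family lists overlapped between groups. None of 13 genes of cadherin turnover and shedding was called (median 0.03; Adam10, the sheddase of E-cadherin, −0.05), and none of 9 repressors of E-cadherin transcription (median −0.06; Snai2 0.34, Zeb1 0.09, Twist2 −0.68).

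**Figure D2:**
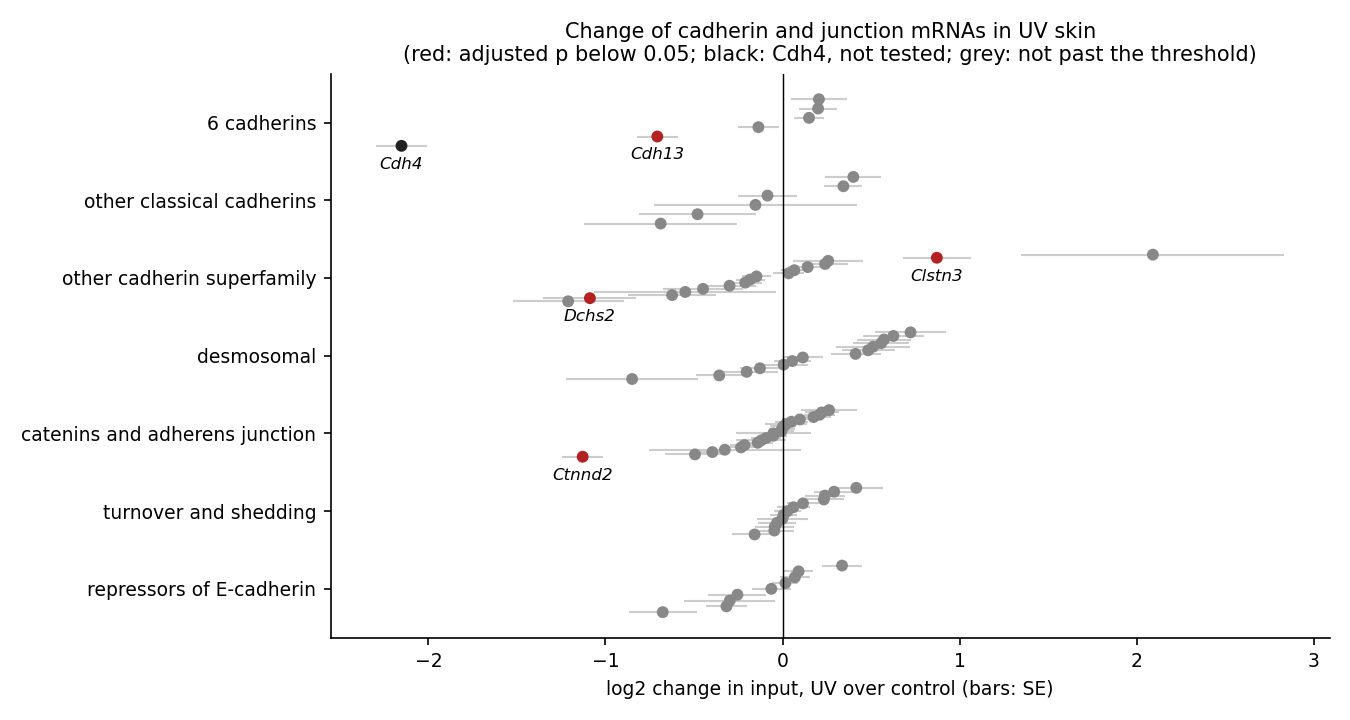
Log2 change between UV and control inputs for the 6 cadherins and 6 lists of related genes, 1 point per gene with its SE; red marks an adjusted p below 0.05, grey marks genes not past it, and black is Cdh4, which has no test. Cdh4 at −2.15 lies to the left of every gene of the lists, and Ctnnd2, Dchs2, Cdh13 and Clstn3 are the called genes.

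The genes whose input pattern was most like that of Cdh4, over 6 libraries and 10702 genes with a mean of at least 5 CPM, were Kdm3a, Mfsd14b, Dab1, Ifnlr1 and Lgr6, with Pearson r of log2 CPM from 0.993 to 0.999. The measure follows the relative spacing of the log2 levels over the libraries and not the size of the change. The log2 difference was −0.21 for Kdm3a, a histone demethylase, −0.86 for Lgr6, a receptor of hair follicle stem cells, and −3.93 for Dab1, an adaptor of reelin signalling. Dab1 went from 22.1, 15.03 and 25.7 CPM in control to 2.10, 1.10 and 1.06 CPM in UV. All these points share libraries, and with 2 separate groups the correlation mostly carries the group difference.

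Over the whole transcript and relative to the typical gene, the IP did not enrich the cadherins much over input. Log2 IP over input for Cdh4 was 0.06, 0.25 and 0.09 in control samples and 0.03, −0.05 and 0.15 in UV samples; the fitted values were 0.12 in control (SE 0.13, adjusted p = 0.466) and 0.04 in UV (SE 0.14, adjusted p = 0.844). The ranges of the groups overlapped, and the change of IP over input was −0.08 (SE 0.19). Control exceeded UV 4.44-fold in input and 4.69-fold in IP.

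Relative to the typical gene, which TMM scaling sets near 0, Cdh1 mRNA was lower in IP than in input. Its log2 IP over input was −0.29, −0.21 and −0.25 in control (fitted −0.25, SE 0.07, adjusted p = 0.0127, edgeR) and −0.38, −0.47 and −0.46 in UV (fitted −0.43, SE 0.07, adjusted p = 0.00032, edgeR). Every UV value was below every control value, as for 9.04% of the genes tested, and the change, −0.18 (95% interval −0.41 to 0.04), was not called. With the sample as a block, which pairs IP and input, its 95% interval was −0.30 to −0.07, and it was not called either (adjusted p = 0.124, edgeR). Such relative depletion was common: 25.8% of 25022 genes were called with IP below input in control and 24.3% in UV, and 24.6% and 24.7% with IP above it. The control call was lost without control sample 1 (adjusted p = 0.0803). With the sample as a block the adjusted p in control was 1.59e-05 (edgeR).

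Cdh13 was at −0.26, −0.22 and −0.26 in control and 0.09, 0.11 and −0.04 in UV, every UV value above every control value, as for 7.98% of the genes tested. Its control value of −0.25 missed the threshold (adjusted p = 0.0846) and passed it with the sample as a block (0.00618); the UV value was 0.05. The change of 0.30 (SE 0.16, 95% interval −0.05 to 0.65) was not called without the block (adjusted p = 1.00). With the block its 95% interval was 0.08 to 0.52, and it was not called either (adjusted p = 0.214). Cdh3 was at −0.16 in UV (adjusted p = 0.261, with the block 0.00777) and −0.06 in control. Cdh11 was at −0.04 in control and 0.09 in UV, and Cdh2 at 0.11 and −0.10, none of them called. No member was called for a change of IP over input, where 0.012% of all genes were (3 of 25022, 399 with the sample as a block; 1109 had an unadjusted p below 0.05).

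These values depend on the scaling. With library size alone, log2 IP over input of all genes had a median of −0.29 in control and −0.16 in UV in place of −0.04 and −0.01, the genes called were 3851 above and 8824 below input in control (6144 and 6451 under TMM) and 4574 and 7459 in UV (6179 and 6092), and Cdh4 was at −0.13 and −0.12.

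Within the transcripts, every member had an m6A peak called in its last exon, for Cdh2 and Cdh13 in only 1 condition. The share of all genes with such a peak was not counted. All 6 had at least 1 peak, as had 50.1% of the genes tested for expression. Cdh1 had 7, Cdh11 had 5, Cdh4 had 3, Cdh3 had 2, and Cdh2 and Cdh13 had 1 each; 10 were called by the authors in UV and 9 in control. Of the 19, 15 touched the last exon of the gene, where most of the 3′ untranslated region lies, and 15 overlapped a peak called in the other condition. Over all peaks 55.1% touched the last exon and 70.1% overlapped a peak of the same gene called in the other condition; as member peaks of 1 gene share their place, the difference from these shares has no test.

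The 3 Cdh4 peaks lay in 2 places. In the last exon a peak at chr2:179895750-179896200 (451 bases, GRCm38) was called in control, and it contained a peak at chr2:179895810-179895990 (181 bases) called in UV. The wider one held 81, 22 and 77 reads in control inputs and 241, 238 and 100 in control IP, and 12, 16 and 18 reads in UV inputs and 30, 63 and 46 in UV IP. Log2 IP over input was 1.78, 2.42 and 1.66 in control samples, where the peak was called, and 1.44, 1.19 and 1.95 in UV samples. In UV, which called only the narrower peak inside it, the IP was 3.12 times the input (log2 1.64, SE 0.27, adjusted p = 3.55e-05 over 39910 peaks, edgeR). The narrower peak, called in UV, was enriched in control libraries with a log2 of 2.28 (SE 0.30, adjusted p = 4.07e-06, edgeR). Each window shares 181 bases with a peak that the tested condition itself called, so neither test is independent of the calls.

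Relative to the counts of its own gene the wider peak had 37.8, 42.4 and 35.3 reads per 100 gene counts in control IP and 35.7, 35.6 and 46.5 in UV IP, and 11.2, 9.09 and 11.6 in control input and 12.5, 14.0 and 12.1 in UV input. The IP values overlapped, with means of 38.5 ± 3.6 and 39.3 ± 6.2, while every UV input value lay above every control one, as for 8.65% of the peaks with a gene count in every input. Peak and gene counts were made differently, so this ratio is a relative measure and not a share of reads. The change of IP over input in this peak was −0.28 (SE 0.35) on the log2 scale, given without a test, and in the authors' deposited table −0.30.

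The third Cdh4 peak lay in exon 1, at chr2:179442431-179442491, the first 61 bases of the gene, and was called in UV only. It held 12, 20 and 12 reads in the UV IP libraries and 0 in all 3 UV inputs. The IP was 14.6 times a floor of 3 counts set for the 3 inputs together. The peak was called in UV for high values there, which favours a high fold. In control libraries it held 64, 63 and 11 reads in IP and 12, 0 and 10 in input, where IP exceeded input by 2.80 on the log2 scale (SE 0.54, adjusted p = 0.000264, edgeR). No peak was called in control, but the window was enriched in the control libraries as well.

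**Figure D3:**
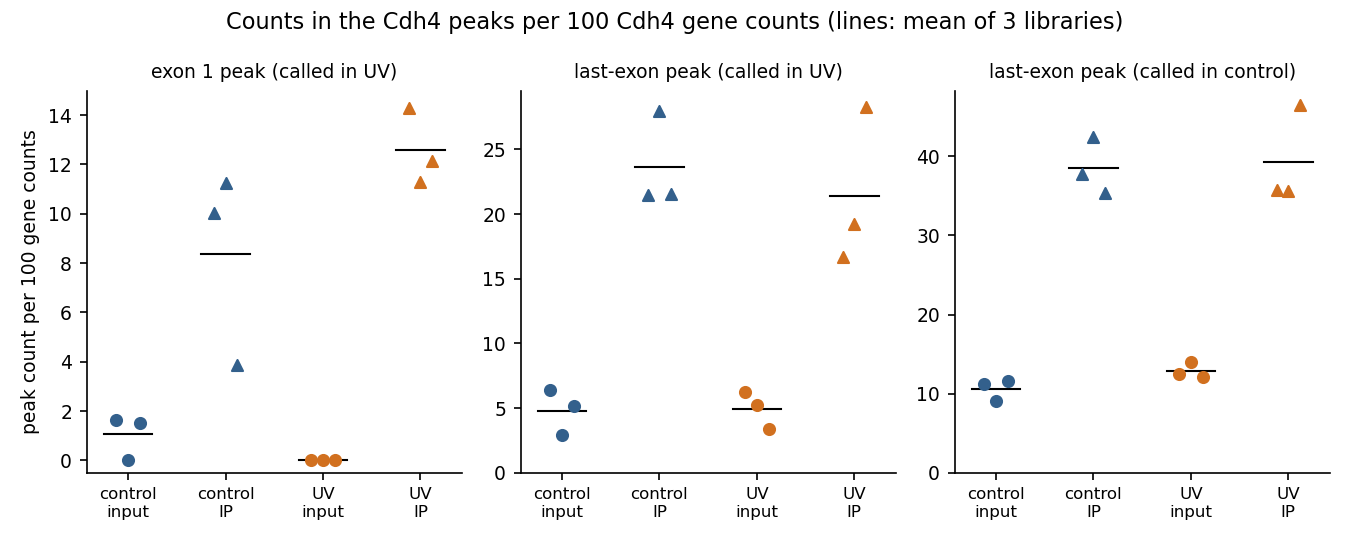
Counts in the 3 Cdh4 peaks per 100 Cdh4 gene counts, for control (blue) and UV (orange) input (circles) and IP (triangles) libraries, with a line at the mean of 3 libraries; each panel has its own axis. In the wider last-exon peak the IP libraries lie at 35.3 to 42.4 in control and 35.6 to 46.5 in UV, the inputs at 9.09 to 11.6 in control and 12.1 to 14.0 in UV, and the exon 1 peak has no reads in the UV inputs.

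In the other cadherins the strongest peaks, by mean IP count, were in the last exon too. Cdh3 had a peak at chr8:106555269-106555776, called in UV, with log2 ratios of IP to input of 1.41, 2.14 and 1.70 in control (fitted 1.76, SE 0.17) and 1.96, 1.70 and 2.01 in UV. It had 30.2, 34.7 and 30.4 reads per 100 gene counts in control IP and 32.3, 32.9 and 33.5 in UV IP, with overlapping groups. Cdh11 had one at chr8:102633887-102634634, called in UV, at 1.20, 1.15 and 1.78 in control and 1.81, 1.65 and 1.56 in UV. It also had peaks in exon 3 of 13 in both conditions, the only peaks of the 6 genes outside a first or last exon apart from one in exon 12 of Cdh1.

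In Cdh1 the peaks and the whole gene differed in sign on the scale of the gene counts. Its peak at chr8:106669647-106669827, in the last exon, called in UV, was at 1.02, 1.11 and 1.00 in control and 0.84, 0.87 and 1.02 in UV, while the whole gene was below 0 in all 6 samples. It had 12.2 to 15.4 reads per 100 gene counts in control IP and 13.2 to 14.2 in UV IP. A window of 181 bases at the 3′ end of the gene, chr8:106670066-106670246, was called in both conditions with the same borders.

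Peaks called in 1 condition were mostly enriched in the other. Of the 10 member peaks called in UV, 9 had IP above input in the control libraries (log2 0.79 to 2.80, adjusted p at most 0.000621, edgeR), where 83.3% of all peaks called in UV did. Of the 9 called in control, 8 had IP above input in the UV libraries (1.03 to 1.89, adjusted p at most 0.000193, edgeR), where 93.7% did. The members' shares were near these backgrounds. Only 3 peaks called in UV and 1 called in control overlapped no peak of the other condition. Of these, the exon 1 peak of Cdh4 and the exon 12 peak of Cdh1 were called, and those of Cdh13 and Cdh2 were not. The other peaks share bases with a peak that the other condition itself called, so their enrichment there is not independent of the calls. These enrichments are relative to the genes: with TMM factors taken from the peaks, which centres the typical peak near 0, 3 of the 9 and 2 of the 8 were called, and 4 of the 9 and 2 of the 8 had IP below input. Under that scaling the last-exon peak of Cdh1 with the highest IP count was at −0.17 in control and −0.31 in UV, and the wider Cdh4 peak at 0.43 in UV (adjusted p = 0.224). Several member peaks overlap and share reads, so they are not independent.

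The exceptions were the peaks of Cdh13 and Cdh2, both with few reads. The Cdh13 peak, chr8:119323521-119323729, called in UV, had 9, 21 and 3 reads in control IP and 6, 24 and 8 in UV IP, and 9, 6 and 16 in control input and 2, 3 and 2 in UV input. Log2 IP over input was 0.19, 0.75 and −0.90 in control (fitted 0.24, SE 0.47, adjusted p = 0.633) and 1.29, 1.73 and 1.79 in UV. Every UV value was above every control value, as for 9.9% of all peaks tested, and the change was 2.07 (SE 0.77), with an unadjusted p of 0.0165 and an adjusted p of 0.57. A peak called in UV is chosen for high values there, which favours this direction.

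The Cdh2 peak, in its last exon and called in control, had 41, 31 and 8 reads in control IP and 18, 38 and 20 in UV IP, and 8, 0 and 9 in control input and 10, 4 and 24 in UV input. In the UV libraries IP exceeded input by 1.05 on the log2 scale (SE 0.52), which missed the threshold (adjusted p = 0.0625; with the sample as a block 0.029). Its change was −1.35 (95% interval −3.02 to 0.33), and here too the condition of the call favours the direction.

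None of the 16 peaks of the 5 tested genes was called for a change between UV and control (adjusted p 0.57 to 0.99; with the sample as a block 0.268 to 0.955), and 1 had an unadjusted p below 0.05. The same held for the whole table, where 0% of 39910 peaks were called by edgeR, 9.57% had every UV value of IP over input below every control value, 3199 had an unadjusted p below 0.05 and 399 were called with the block. Of the 19 member peaks, 0 had an FDR below 0.05 in the authors' deposited table, as against 0.105% of all peaks, and 2 had a p below 0.05: the Cdh2 peak (log2 −1.50, p = 0.0464) and the Cdh13 peak (log2 2.13, p = 0.0242).

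**Figure D4:**
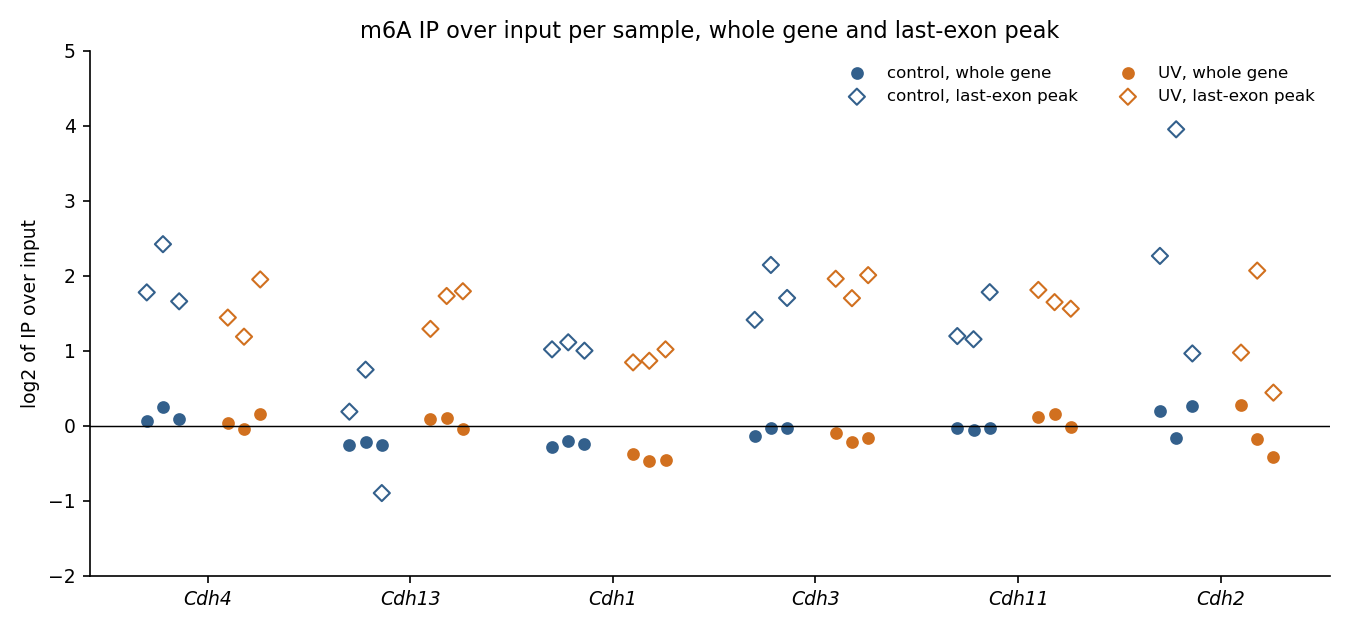
Log2 IP over input in each sample for the whole gene (filled circles) and for the last-exon peak with the highest mean IP count (open diamonds), control in blue and UV in orange. Whole genes lie between −0.47 and 0.28, the last-exon peaks of Cdh4, Cdh3, Cdh11 and Cdh1 between 0.84 and 2.42 in both conditions, and those of Cdh13 and Cdh2, with few reads, are spread more widely.

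In the related lists, IP over input of whole genes was called in both directions. Of 10 tested repressors of E-cadherin, 5 were called, all above input in control and in UV. Among them were Twist1 (1.55 in control, 1.91 in UV) and Zeb1 (1.10, 0.91). Of those not called, Snai1 (−0.60), Klf8 (−0.44) and Twist2 (−0.34) were below input in control, and Snai3 (0.74) and Tcf4 (0.14) above. The list's median was 0.75 in control beside −0.04 for all genes, and 0.45 in UV beside −0.01. Of the 7 other classical cadherins 3 were above and 1 below input in control, namely Cdh10 (1.503), Cdh19 (0.96) and Cdh5 (0.94), and Cdh24 (−0.73), and of 17 wider superfamily members 8 were above and 3 below, among them Clstn3 (1.01), Fat4 (0.73) and Fat2 (0.72) above and Ret (−1.09) and Cdh26 (−1.95) below. In UV 2 of the classical cadherins were above and 1 below, and 8 and 2 of the wider members. Cdh10, below the count filter for expression, was not called in UV (0.20, adjusted p = 0.766, edgeR). Nor was Cdh26, at 0.29 CPM in control inputs (−0.97, adjusted p = 0.22, edgeR). Of 21 catenins and adherens junction partners 9 were above and 5 below input in control, Lima1 at 1.18 and β-catenin (Ctnnb1) at −0.77. The desmosomal list had 2 above and 3 below, with Dsp at 0.72 and Dsg1c at −1.04, and the turnover list had 3 above and 8 below, Aph1a, a γ-secretase subunit, at −1.48. Apart from the genes given as not called, these are log2 differences with an adjusted p below 0.05 (edgeR). The backgrounds in control were 24.6% above and 25.8% below. None of the list genes was called for a change of IP over input in the fit without the sample as a block. In that fit 3 of 25022 genes were called. With the block 211 genes of the whole table were called higher and 188 lower, and the list genes are not given for it.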

How the data were processed

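Skin RNA of 3 control and 3 UV samples was analysed as 12 libraries, an m6A IP and an input from each sample. The deposited gene table holds raw counts per gene, and the deposited peak table raw counts per peak. Per the file headers the peak table also gives the authors' log2 fold change, p-value and FDR for each peak. STAR 2.5.3a and GRCm38 are named in the submitters' processing notes. No source used here names the read counter, the strand setting, the peak caller or the test behind the deposited p-values. In the gene table, 79.5% to 83.6% of counts from 1 to 20 were even, against 52.5% to 59.2% of peak counts, so genes and peaks were counted differently. Peak starts in the file count from 0 and are printed counting from 1.

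Counts were scaled by TMM, filtered with filterByExpr and tested with the quasi-likelihood test of edgeR 4.0.16 in R 4.3.3, adjusted by Benjamini-Hochberg over all genes or peaks tested, with calls at 0.05. UV and control were compared within the 6 inputs and within the 6 IP libraries. IP over input and its change were fitted on all 12 libraries as 4 group means, and peaks with the library sizes and TMM factors of the genes. Intervals are 95% intervals of the fit. The method was tried on simulated counts, drawn independently for each library with a common spread and changed only in features with many reads. That trial does not cover paired IP and input libraries or features with few reads. IP and input of the same sample deviated together from their group means (r 0.61 to 0.874), so the sample number pairs them. For the members, their peaks and the counts over all genes or peaks, the block is given where it made a difference. That is where it changed a call, whether the interval of a change held 0, or a count by over 1.5 times. Numbers shared across the conditions did not pair them (r −0.262 to 0.133).

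The members, lists and markers were chosen with earlier results of these data known. Named were the members, up to 4 called genes per list with the smallest p in each comparison, the peak of each member with the highest mean IP count and any called peak, and the 5 genes most like Cdh4, leaving out Gm and Rik names; the other list genes named are descriptive. All 6 members matched RefSeq symbols (GRCm38.p6).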

Additional observations from a re-analysis of the deposited data

How the results depend on the processing

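Of 330 values of single genes recomputed under other settings, 298 kept their direction and their side of the threshold (or, for Cdh4, moved by less than 1 SD). Those that changed sign were near 0. Under library size alone these were Cdh2 in IP (−0.0046), Cdh4 IP over input in control (−0.13) and in UV (−0.12) and its change (0.011), Cdh2 IP over input in control (−0.14), and Cdh11 (−0.064) and Cdh13 (−0.11) in UV; with DESeq2, Cdh2 in IP (−0.0013). Leaving out single samples, Cdh1 in IP ranged from −0.068 to 0.0056, Cdh2 in IP from −0.15 to 0.12, and IP over input in UV from −0.028 to 0.095 for Cdh4 and from −0.29 to 0.038 for Cdh2. The members called numbered 0 to 1 in expression and in control IP over input when single samples were left out; in control IP over input they were 2 under library size alone or the sample block, and in UV 2 with the block. List genes called in expression numbered 7 under library size alone, 11 without the count filter, 12 with DESeq2 and 1 to 11 when single samples were left out. All genes called in expression numbered 1404, with 2152 without the filter, 713 with a replicate block, 2576 with DESeq2 and 219 to 2100 leaving out samples; in IP 570, with 1426, 247, 1362 and 67 to 1248. For the change of IP over input 3 genes became 5 (library size alone), 22 (no filter), 399 (block), 50 (DESeq2) and 0 to 7 (samples left out), and 0 peaks became 399 with the block and 0 to 4. With TMM on the peaks, which centres peaks on 0, 5 member peaks were called enriched in the other condition, in place of 17. At the authors' FDR of 0.01, 0 member peaks passed, and all 15 overlaps held when 50% of the shorter peak had to be shared. The block of replicate numbers for UV against control changed no member's call. The causes were not tested.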
